A study of Oryzias latipes with 84 samples.

Results

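The gene cga, which encodes the alpha subunit shared by the glycoprotein hormones, was followed through 84 bulk RNA-seq libraries of Japanese medaka pituitaries. It was taken as the entry with the Ensembl identifier ENSORLG00000022598, the identifier that the study pairs with cga, and is 1 of 24364 entries of the count table. Each library came from the whole pituitary of a single fish of the transgenic line d-rR lhb:GFP, in which the promoter of lhb drives a green fluorescent protein in all fish of both sexes, and fish without the transgene were not analysed here. The 68 females were 32 to 375 days post-fertilization (dpf) by their labels and 9.5 to 29 mm long, and were placed in 11 age groups of 32 to 35 (n = 4), 37 to 39 (n = 4), 44 to 49 (n = 8), 53 (n = 5), 58 to 59 (n = 4), 64 to 74 (n = 10), 79 to 92 (n = 10), 96 to 111 (n = 11), 131 to 179 (n = 6), 249 to 277 (n = 3) and 375 dpf (n = 3). The 16 males were 38, 57, 70 and 134 dpf (n = 4 each) and 12 to 28 mm long. For some males of 134 dpf by their labels the study's text gives another age, and the labels were used throughout.

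Each glycoprotein hormone of the pituitary is a pair of one alpha and one beta subunit. The alpha subunit is the same in all of them, and the beta subunit gives the hormone its identity. In medaka the beta subunit genes are fshb for follicle-stimulating hormone (Fsh), lhb for luteinizing hormone (Lh) and tshba for thyroid-stimulating hormone (Tsh). Fsh and Lh are made in gonadotropes and act on the gonads, whereas Tsh is made in thyrotropes and acts on the thyroid. In teleost fish the Fsh and Lh genes are largely expressed in separate cells, so that cga transcripts in a whole pituitary are the sum over several cell types. From single-cell data, the study also reports a cell cluster that has cga transcripts without those of any beta subunit gene. In the RefSeq annotation of the Hd-rR assembly ASM223467v1, cga lies on chromosome 22 between znf292 and syncrip and overlaps 0 other genes. The authors counted reads on an adjusted gene model of cga with a shortened 3′ exon, so that the level given here is the level over that model.

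Library totals ranged from 2424546 to 9348785 counts. The entry for cga received 945 to 152837 counts per library, which corresponds to a counting error of 0.256 to 3.25% of its level, far below the spread between fish. Levels were expressed as CPM, the count divided by the total of the same library and scaled to a common size. The pituitary identity of the tissue was checked by the 8 hormone genes, which were all above 0 in all libraries and took 1.48 to 38.1% of the counts. The lowest share was found in medaka7, a female of 79 dpf, and low shares were also found in the males medaka126 (5.6%, 38 dpf) and medaka135 (9.00%, 70 dpf) and in the female medaka26 (9.06%, 66 dpf and 10 mm). Because these fish touch several results, values without medaka7 or medaka135 are given where they matter. Markers of red blood cells (gb and hbbe2) and of antigen-presenting cells (CD74) were above 0 in all libraries and summed to 952 to 79762 CPM.

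Across the female age groups the median level of cga ran from 1474 CPM at 32 to 35 dpf to 22490 CPM at 375 dpf. The youngest females, of 32 to 35 dpf, had cga at 1177, 1240, 1708 and 1721 CPM. At 37 to 39 dpf it was at 1967, 2101, 3597 and 4404 CPM. On CPM all fish of the second group were above all fish of the first. On CPM divided by TMM factors, the type of scaling used in the edgeR tests, the groups overlapped. On that scale medaka103 (39 dpf) was at 1892 and medaka111 (32 dpf) at 1954. The log2 fold change was 1.13 (SE 0.69, adjusted p = 0.605 in edgeR) and did not pass the test. In this comparison 0.123% of 22034 genes were called higher and 0.059% lower (0.182% together), a count of 40 genes that was 2 without medaka109 and 1202 without medaka110. Levels then stayed in this range for several weeks. The females of 44 to 49 dpf spanned 1606 to 3593 CPM (median 2378, n = 8). Those of 53 dpf were at 1372, 1647, 3162, 3164 and 3228 CPM, and those of 58 to 59 dpf at 1832, 3391, 3427 and 3597 CPM. These 3 groups overlapped with each other and with the females of 37 to 39 dpf.

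From 64 dpf onwards, females of similar age differed widely. At 64 to 74 dpf the lowest level of cga was 533 CPM, the median 2731 CPM and the highest 10544 CPM (n = 10), a 19.8-fold range. At 79 to 92 dpf the range was 202 to 13902 CPM, with a median of 7300 CPM (n = 10), and the lowest value was that of medaka7. The next lowest value of this group was 1898 CPM, in medaka41 (92 dpf). At 96 to 111 dpf the range was 1764 to 18038 CPM, with a median of 7195 CPM (n = 11). The spread of these groups was thus far larger than that of the younger females, whose highest and lowest levels differed by at most 2.35-fold within a group. The 12 oldest females were uniformly high. Females of 131 to 179 dpf reached 9903 to 23585 CPM (median 21778, n = 6), with medaka119 (179 dpf) as the lowest and the other 5 fish at 17288 CPM or above. Females of 249 to 277 dpf were at 17484, 21332 and 27071 CPM, and females of 375 dpf at 18729, 22490 and 25112 CPM. No female of 32 to 74 dpf other than medaka54 (74 dpf, 10544 CPM) reached the lowest of these values. In whole pituitaries, a larger share of cells that express cga and more cga RNA per cell cannot be told apart.

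**Figure D1:**
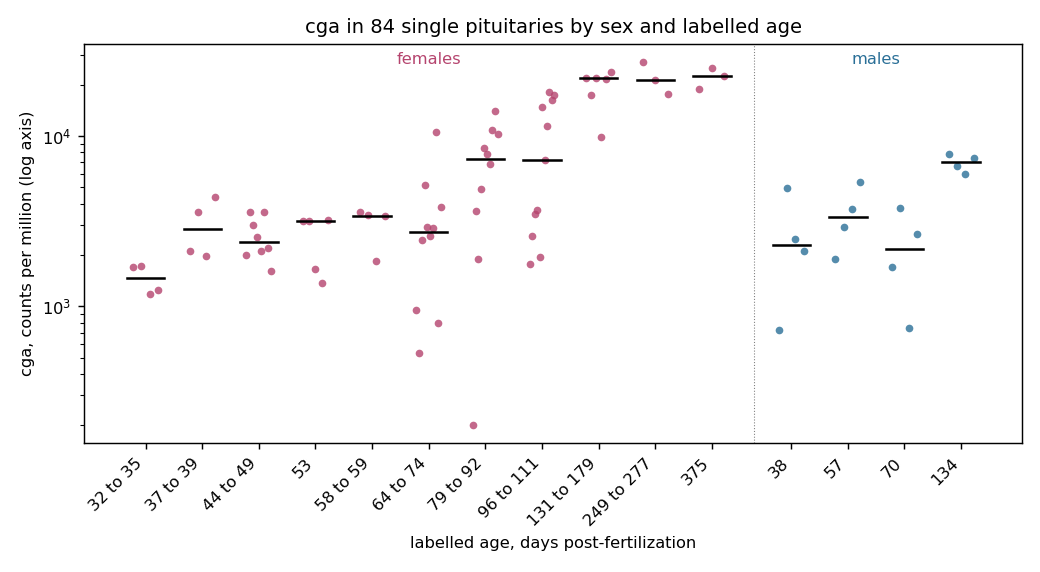
Level of cga in each of the 84 libraries (points, CPM on a log axis) by labelled age, with the females on the left and the males on the right; the bar is the group median. Females of 131 to 375 dpf lie between 9903 and 27071 CPM, males of 134 dpf between 6004 and 7773 CPM, and the widest spread is found in females of 64 to 111 dpf.

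In the males the level of cga was similar at the first 3 ages and higher at the fourth. At 38 dpf cga was at 723, 2111, 2473 and 4947 CPM, and at 57 dpf at 1886, 2922, 3746 and 5326 CPM. At 70 dpf it was at 746, 1697, 2657 and 3793 CPM, with the lowest value in medaka135. At 134 dpf it was at 6004, 6677, 7398 and 7773 CPM. On CPM all 4 males of 134 dpf were above all 12 younger males, which reached at most 5326 CPM. On TMM-scaled CPM medaka128 (38 dpf) was at 7251, within the 6631 to 8805 of the males of 134 dpf. The other younger males remained below that range. Levels at 134 dpf were much closer together on CPM, with a mean of 6963 ± 785 CPM (SD, n = 4) against 2752 ± 1479 CPM (SD, n = 12) in the younger males.

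When the 15 groups were ordered by their median cga level, the lowest median was that of the females of 32 to 35 dpf (1474 CPM). It was followed by the males of 70 dpf (2177 CPM) and 38 dpf (2292 CPM), the females of 44 to 49, 64 to 74, 37 to 39 and 53 dpf, the males of 57 dpf (3334 CPM) and the females of 58 to 59 dpf (3409 CPM). The males of 134 dpf (7038 CPM) came next, close to the females of 96 to 111 dpf (7195 CPM) and of 79 to 92 dpf (7300 CPM), and the females of 249 to 277, 131 to 179 and 375 dpf were at the top (21332, 21778 and 22490 CPM). Neighbours in this order were compared by two-sided permutation tests of log2 CPM. These tests were exact except between the females of 79 to 92 and of 96 to 111 dpf, where 100000 random permutations were used. Of the 14 pairs, 0 passed after adjustment and 2 had an unadjusted p under 0.05. These were the males of 134 dpf over the females of 58 to 59 dpf (log2 difference 1.23, p = 0.0286, adjusted p = 0.2) and the females of 249 to 277 dpf over those of 79 to 92 dpf (log2 difference 2.22, p = 0.00699, adjusted p = 0.0979, exact permutation tests). At all other places the unadjusted p was 0.27 or higher in these permutation tests. The order was made from the same levels that were tested, so neighbours are alike by construction. For groups of 4 against 4 the smallest possible p is 0.0286. The tests therefore describe the order only, and cannot show that neighbouring groups have the same level.

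In females cga was related to body length. In a joint fit of body length and log2 age over all 68 females, cga was 1.23 higher on the log2 scale per 5 mm of body length (SE 0.30), that is 2.34-fold (adjusted p = 0.00514, edgeR's quasi-likelihood test). In this fit 0.65% of the 21532 genes tested were higher with length and 4.72% were lower (5.37% together). Per doubling of age, at a given length, the change of cga was 0.02 (SE 0.31, adjusted p = 0.991 in edgeR), where 1.62% of the genes were higher and 0.181% lower (1.8% together). Length and age themselves were closely related (Pearson's r = 0.88, Spearman's rho = 0.77, n = 68), and with age alone in the model cga was 1.23 higher per doubling of age (adjusted p = 3.6e-10 in edgeR). With each labelled age as a level of its own, so that only fish of the same age were compared, the value per 5 mm was 1.45 (adjusted p = 0.00237 in edgeR). In the joint fit with log2 age, the value per 5 mm was 1.07 without medaka7 (adjusted p = 0.0326 in edgeR). In that joint fit among the females of 32 to 111 dpf it was 1.49 (adjusted p = 0.00183 in edgeR). The fit with each labelled age as a level of its own was not repeated without medaka7.

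RNA integrity moved with both measures. Over the 57 females with an RNA integrity number, this number was related to body length (r = 0.46, rho = 0.52) and to cga (r = 0.58, rho = 0.61). With the number in the model, cga was 1.06 higher per 5 mm and did not pass the test (adjusted p = 0.0582 in edgeR). In the same 57 fish without the number in the model, a fit added after seeing the data, the value was 1.29 (adjusted p = 0.00826 in edgeR). Whether RNA integrity contributes to the relation was not tested further. Of the 3 markers of other cells, 0 passed the test with length (log2 changes per 5 mm of -0.05 for gb, -0.01 for hbbe2 and -0.39 for CD74). The value of CD74 was close to passing (SE 0.13, unadjusted p = 0.00441, adjusted p = 0.0689 in edgeR). With age, at a given length, CD74 was higher (0.97 per doubling, SE 0.15, adjusted p = 2.1e-05 in edgeR). Their summed level was 952 to 79762 CPM in the females of 32 to 74 dpf, 1405 to 16918 CPM in those of 79 to 111 dpf and 2357 to 18661 CPM in those of 131 to 375 dpf, and their part in the relation was not tested.

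The relation to length was visible among females of the same labelled age, mainly in those of 64 to 111 dpf. At 111 dpf, cga was at 1764 CPM in the fish of 10.5 mm, 2574 CPM at 13 mm, 3691 CPM at 15 mm, 18038 CPM at 18 mm and 17247 CPM at 19 mm. The 2 longest fish of this age were far above the other 3. At 99 dpf, cga was at 1944 CPM in the fish of 16 mm, 14835 CPM at 17.5 mm and 16296 CPM at 18.5 mm. At 79 dpf it was at 202 CPM in medaka7 (10.5 mm), 3637 CPM at 14 mm, 4847 CPM at 16 mm and 6801 CPM at 17 mm. In contrast, the females of 87 dpf, which were all 16 to 18.5 mm long, were all high, at 7800 to 13902 CPM. Among the females of 66 dpf a single long fish was low. Levels at this age were 953 CPM at 10 mm, 533 CPM at 11 mm, 2914 CPM at 15.5 mm, 793 CPM at 19.5 mm and 3836 CPM at 20 mm. The longest fish thus had the most cga, whereas medaka22, at 19.5 mm, had less than the fish of 15.5 mm and of 10 mm. From the shortest to the longest fish, RNA integrity numbers were 8.6, 9.3, 9.6, 10 and 9.8 at 111 dpf. In the same order they were 9.5, 9.8 and 10 at 99 dpf, and 7.7, 9.7, 9.9 and 9.9 at 79 dpf. At 66 dpf they were 8.5, 9.3, 9.2, 8.4 and 9.1. The part of RNA integrity in these examples was not tested.

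Counted over all pairs of females of the same labelled age and different length, the longer fish had more cga in 43 of 66 pairs (65.2%). By age, in a division chosen after seeing the data, this was 7 of 20 pairs (35%) at 32 to 59 dpf, 33 of 41 pairs (80.5%) at 64 to 111 dpf and 3 of 5 pairs (60%) at 131 to 375 dpf. Pairs share fish and are given as a description only. Fish of the same age may also have shared a tank or an egg collection, since the labels describe tanks of 10 fish of the same age, and the labels do not name the tank.

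**Figure D2:**
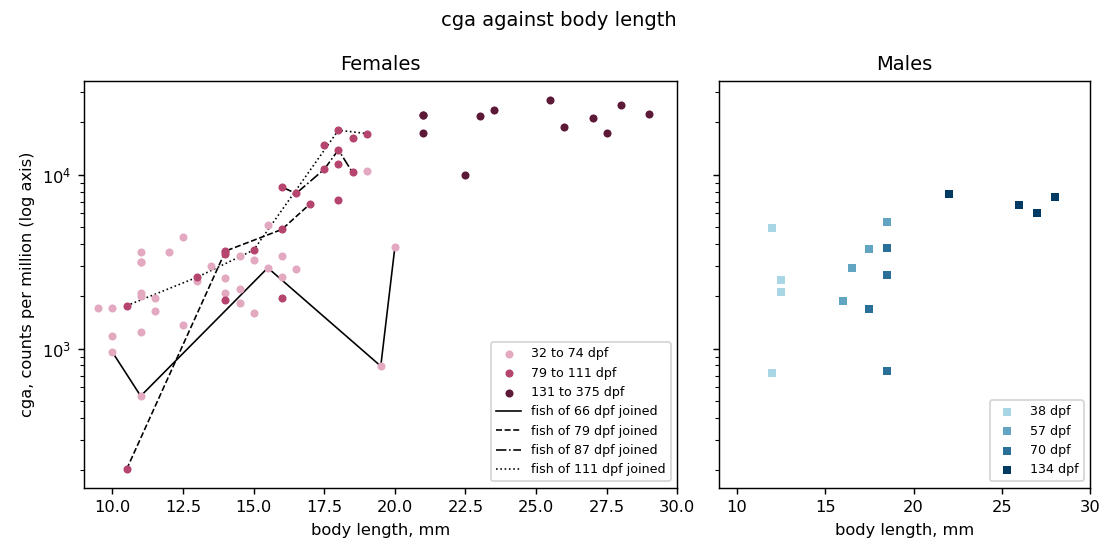
Level of cga (CPM, log axis) against body length (mm) in females (left, coloured by age, with the fish of 66, 79, 87 and 111 dpf joined by lines) and males (right). At 111 dpf the females run from 1764 CPM at 10.5 mm to 17247 CPM at 19 mm, and the 4 males of 134 dpf, at 22 to 28 mm, lie between 6004 and 7773 CPM.

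Across the 68 females, log2 CPM of cga was correlated with body length (r = 0.81, rho = 0.82, both with p = 1e-05 in permutation tests, the smallest p that 100000 permutations can give, adjusted p = 1e-05 and 1.17e-05 over 7 relations). Without the 2 fish of the most extreme length r was 0.80, and for deviations from the means of the age groups, permuted within groups, it was 0.65 (rho = 0.54). With log2 age r was 0.71 (rho = 0.70, both with permutation p = 1e-05), and it was 0.69 without 2 of the 3 fish of the most extreme age, 375 dpf.

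Between successive female age groups cga did not pass the test in any of the 10 comparisons, which were fitted together. edgeR called cga in 0 of the 10, with 1 unadjusted p under 0.05, and DESeq2 in 0, with 2. The largest difference was that of females of 79 to 92 dpf over those of 64 to 74 dpf (log2 fold change 1.30, SE 0.44, unadjusted p = 0.00412, adjusted p = 0.355 in edgeR), where 0.0817% of the genes were called higher and 0.00454% lower (0.0862% together). For females of 131 to 179 dpf over those of 96 to 111 dpf the log2 fold change was 0.88 (SE 0.48, adjusted p = 0.345 in edgeR), where 2.21% of the genes were called higher and 1.25% lower (3.46% together). For females of 249 to 277 dpf over those of 131 to 179 dpf it was 0.11 (SE 0.68), where 0.00908% of the genes were called higher and 0.182% lower (0.191% together), and for females of 375 dpf over those of 249 to 277 dpf it was again 0.11 (SE 0.79). The levels of the 3 oldest groups overlapped. In the comparison of 44 to 49 with 37 to 39 dpf the log2 fold change of cga was -0.43 (SE 0.58), with 0.0272% of the genes called, all of them lower, and in the other 5 comparisons edgeR called 0% of the genes, with 261 to 1819 genes below 0.05 before adjustment and 0 to 34 called by DESeq2.

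In males cga did not pass the test between ages either. At 57 dpf relative to 38 dpf its log2 fold change was 0.32 (SE 0.53, adjusted p = 0.844 in edgeR), and at 70 dpf relative to 57 dpf it was -0.51 (SE 0.53, adjusted p = 0.868). At 134 dpf relative to 70 dpf it was 1.41 (SE 0.54, adjusted p = 0.184), although the groups did not overlap. In these 3 comparisons edgeR called 0 of 19502 genes (0%), with 1980, 1448 and 3776 genes below 0.05 before adjustment, whereas the number called by DESeq2 was 59, 5 and 1109. Without medaka135 edgeR called 338 genes at 134 relative to 70 dpf, and the log2 fold change of cga was 1.11 (adjusted p = 0.222). In this comparison CD74 had a log2 fold change of -2.29 (unadjusted p = 0.0224, adjusted p = 0.197 in edgeR), with 434 to 567 CPM at 134 dpf, against 6436 CPM in medaka135 and 329 to 500 CPM in the other 3 males of 70 dpf. Its part in the difference was not tested. At 134 dpf relative to 38 dpf the log2 fold change of cga was 1.22 (SE 0.53, adjusted p = 0.159 in edgeR), with 1.06% of the genes called higher and 1.28% lower (2.34% together). This last comparison depended on the young males. Without medaka128, the male of 38 dpf with the highest level (4947 CPM), cga was higher by 1.93 and passed (adjusted p = 0.0458), and without medaka126, the lowest (723 CPM), the value was 0.86 (adjusted p = 0.305, both in edgeR). The markers gb and hbbe2 had log2 fold changes of -2.86 and -2.87 (adjusted p = 0.0995 and 0.0906 in edgeR), with summed marker levels of 2807 to 6905 CPM at 134 dpf and 1122 to 79538 CPM at 38 dpf, and their part was not tested.

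The sexes did not differ in cga at the 3 younger ages by this test. Females of 37 to 39 dpf, at 1967 to 4404 CPM, overlapped with males of 38 dpf, at 723 to 4947 CPM (log2 fold change 0.05, SE 0.59, adjusted p = 0.981 in edgeR). Females of 58 to 59 dpf, at 1832 to 3597 CPM, overlapped with males of 57 dpf, at 1886 to 5326 CPM (log2 fold change -0.32, SE 0.33, adjusted p = 0.724 in edgeR). These females were 14 to 16 mm long and the males 16 to 18.5 mm, and with body length added the value was 0.32 and did not pass. Females of 64 to 74 dpf, at 533 to 10544 CPM, overlapped with males of 70 dpf, at 746 to 3793 CPM (log2 fold change -0.02, SE 0.63, adjusted p = 0.985 in edgeR). At the youngest age edgeR called 0 of 17562 genes (0%), with 2209 below 0.05 before adjustment and 383 called by DESeq2. At the next age 0.0325% of the genes were called, all of them lower in females, and in the last comparison 11.1% were higher and 7.42% lower (18.5% together). The direction of cga in the last comparison depended on single males and on the scaling. The log2 fold change of CD74 in this comparison was -2.89 (adjusted p = 0.00774 in edgeR). CD74 was at 243 to 763 CPM in the females and at 6436 CPM in medaka135. In the other males of 70 dpf it was at 329 to 500 CPM, inside the female range. The high male level of CD74 was thus that of medaka135 alone, and its part was not tested. The value for cga was -0.31 without medaka135, 0.41 without medaka134 and 0.025 without medaka136, and 0.35 with library totals that leave out the hormone genes, under which the median of all genes was also shifted, by 0.50.

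In females of 131 to 179 dpf cga was higher than in males of 134 dpf. It was at 9903, 17288, 21639, 21916, 21954 and 23585 CPM in the females of 131 to 179 dpf, against 6004, 6677, 7398 and 7773 CPM in the males of 134 dpf. All 6 females were above all 4 males. After TMM normalization cga was higher by 1.17 on the log2 scale (SE 0.24), that is 2.25-fold (adjusted p = 0.0368 in edgeR). In this comparison 0.0807% of 19830 genes were called higher in females and 0.439% lower (0.519% together). The 3 older females of 249 to 277 dpf and the 3 of 375 dpf, at 17484 to 27071 CPM, were also above all males, but no males of these ages were available. Of the beta subunit genes, tshba was also higher in these females (log2 fold change 1.47, SE 0.29, adjusted p = 0.0257 in edgeR), whereas fshb (0.71, SE 0.33, adjusted p = 0.441) and lhb (0.79, SE 0.53, adjusted p = 0.586) did not pass.

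Several measures moved with this sex difference. The hormone genes took 10.8 to 22.3% of the counts in these females, against 27.0 to 33.3% in the males. TMM factors were 0.959 to 1.29 in the females, against 0.758 to 1.08 in the males. RNA integrity numbers were 8.0 to 9.8 in the 5 females that had one, against 7.1 to 9.8 in the 4 males. On TMM-scaled CPM the groups overlapped slightly, with 8373 to 22851 CPM (median 18494) for females, against 6631 to 8805 CPM (median 7531) for males, the single overlapping female being medaka119. By their labels medaka112 and medaka114 were 131 dpf and the other females of this group 172 or 179 dpf, whereas these males were all 134 dpf. Most of the females were thus also older than the males. The females were 21 to 23.5 mm long and the males 22 to 28 mm. With body length added the log2 fold change remained 1.18 but did not pass (adjusted p = 0.803), nor did it with all 84 libraries in a single fit (1.16, adjusted p = 0.629, both in edgeR). The call ended when medaka114 (adjusted p = 0.0604), medaka118 (0.0822), medaka120 (0.0986), medaka121 (0.0985), medaka137 (0.0634), medaka138 (0.149), medaka139 (0.143) or medaka140 (0.0688) was left out of the edgeR fit, while the log2 fold change stayed between 1.07 and 1.31. Of the markers of other cells 0 of 3 passed the test (log2 fold changes of 0.42, 0.60 and 0.60 for gb, hbbe2 and CD74), with summed levels of 2357 to 18661 CPM for females, against 2807 to 6905 CPM for males. The part of these measures in the difference was not tested. The change from juvenile to adult, tested as the female change (131 to 179 over 37 to 39 dpf) minus the male change (134 over 38 dpf), was 1.15 larger in females (SE 0.64, unadjusted p = 0.0848, adjusted p = 0.462 in edgeR), so a sex difference in this change was not shown. It was 0.41 without medaka128 (adjusted p = 0.756) and 1.47 without medaka126 (adjusted p = 0.26, both in edgeR). For this contrast edgeR called 0% of 20501 genes, with 2712 below 0.05 before adjustment, whereas 422 were called by DESeq2.

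**Figure D3:**
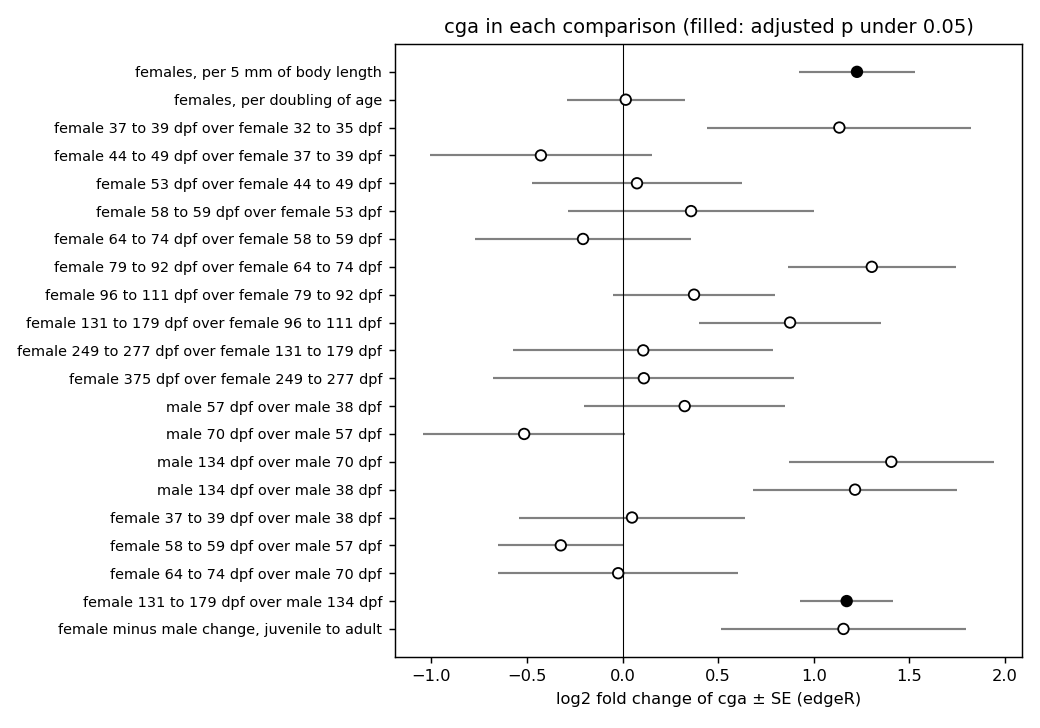
Log2 fold change of cga with its SE in each edgeR comparison, with filled points where the adjusted p was under 0.05; a positive value means higher in the first-named group, or higher with length or age. The 2 filled points are body length in females (1.23 per 5 mm) and females of 131 to 179 dpf over males of 134 dpf (1.17).

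The level of cga was then set against its partners. In each library the counts of cga were divided by the summed counts of fshb, lhb and tshba. As gene length is not corrected, this ratio is not a ratio of molecules, but it does not depend on the library total. It was compared between fish only. The mix of the 3 beta subunit genes differed between ages, so gene length can still enter a comparison of this ratio between fish. In females of 32 to 35, 37 to 39, 44 to 49, 53 and 58 to 59 dpf the median of the ratio was 0.350, 0.304, 0.292, 0.327 and 0.282. It was 0.339 at 64 to 74 dpf, 0.453 at 79 to 92 dpf and 0.546 at 96 to 111 dpf. For the females of 131 to 179, 249 to 277 and 375 dpf it was 0.880, 0.938 and 0.902. In counts, the older females thus had more cga relative to the sum of its partners as well as more cga per library total. On the log2 scale the 12 females of 131 to 375 dpf lay between -0.57 and 0.23 and the 35 females of 32 to 74 dpf between -2.27 and -0.69, without overlap. The 21 females of 79 to 111 dpf lay between -1.91 and -0.28 and bridged these ranges, with the highest value in medaka7, in which hormone genes took 1.48% of the counts. The separation of old and young females depended on the use of the sum. Relative to the geometric mean of the 3 partners, the females of 131 to 375 dpf lay between 1.08 and 1.91. Those of 32 to 74 dpf then lay between -0.11 and 2.27, with the highest value in medaka101 (53 dpf). The single partners differed from each other in females too. From 37 to 39 dpf to 131 to 179 dpf the log2 ratio of cga to tshba went from -1.70 to -0.67 up to 1.42 to 2.50. The ratio to lhb was lower in the older group (2.76 to 3.73 against 0.33 to 2.71), and that to fshb overlapped (-0.76 to 2.34 against 0.38 to 1.92).

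**Figure D4:**
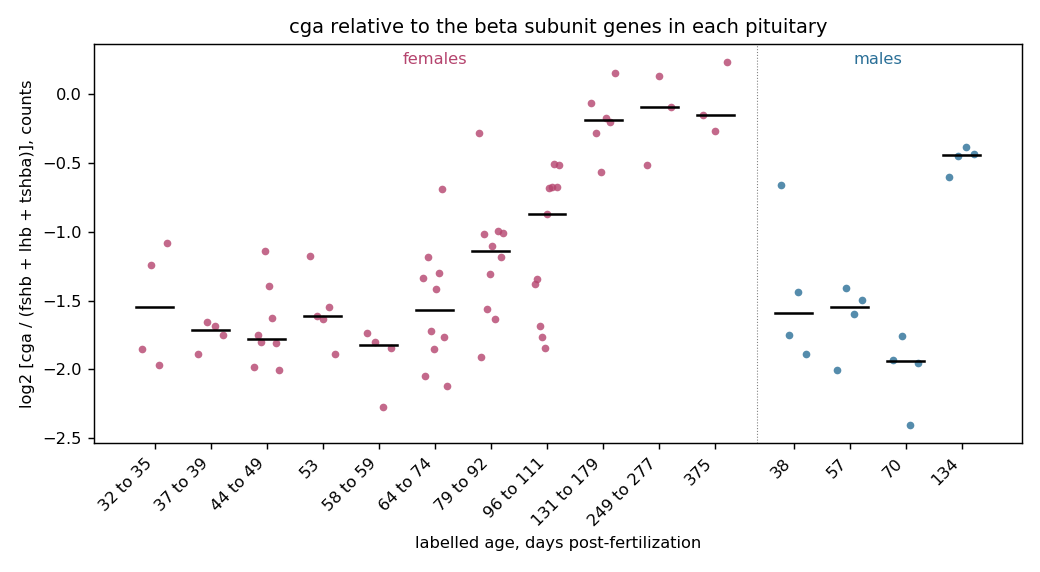
Log2 ratio of cga counts to the summed counts of fshb, lhb and tshba in each library (points) by labelled age, with the females on the left and the males on the right; the bar is the group median. Females of 131 to 375 dpf lie between -0.57 and 0.23, males of 134 dpf between -0.60 and -0.38, and younger fish mostly below -1.

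In the males the log2 ratio was -1.43 ± 0.55 at 38 dpf, -1.63 ± 0.26 at 57 dpf, -2.01 ± 0.28 at 70 dpf and -0.46 ± 0.095 at 134 dpf (mean ± SD, n = 4 each). The males of 134 dpf, at -0.60, -0.45, -0.43 and -0.38, were above all younger males, of which medaka126 (38 dpf) was the highest at -0.66. At 134 dpf relative to 70 dpf the ratio was higher by 1.55 and relative to 38 dpf by 0.97, each with an exact two-sided permutation p of 0.0286, which is the lowest value possible for groups of 4, and an adjusted p of 0.131 over a family of 32 ratios and comparisons. Relative to the geometric mean of the partners in place of their sum, the differences were 1.37 and 0.21. The family held 0 adjusted p under 0.05. As groups of 4 without any overlap still had an adjusted p of 0.131, not passing does not show that groups were alike. The single partners differed from each other. At 134 dpf relative to 38 dpf the mean log2 ratio of cga to tshba was 2.96 higher, without overlap (exact permutation p = 0.0286, adjusted p = 0.131), while its mean ratio to lhb was 1.56 lower (exact permutation p = 0.0571) and that to fshb 0.77 lower (exact permutation p = 0.2). In the same comparison lhb was 2.82 (SE 0.67, adjusted p = 0.0456) and fshb 2.35 (SE 0.49, adjusted p = 0.0354) higher, and the log2 fold change of tshba was -2.29 (SE 0.74, adjusted p = 0.0833, all in edgeR). The calls of lhb and fshb rested on single fish, since edgeR called 0 genes of any kind in this comparison without medaka138 and 0 without medaka139.

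The make-up of the beta subunit counts also differed between ages. In the males tshba took 71.3 ± 28.7% of the summed beta subunit counts at 38 dpf, 60.7 ± 16.1% at 57 dpf, 36.9 ± 6.81% at 70 dpf and 17.1 ± 6.39% at 134 dpf (SD, n = 4 each), and lhb took 10.0 ± 12.1%, 6.84 ± 4.26%, 9.6 ± 2.7% and 34.3 ± 5.76%. In the female age groups, in order of age, tshba took a median of 72.9, 86.5, 68.8, 87.8, 35.2, 44.4, 20.4, 23.7, 25.1, 38.3 and 40.1%, which was not a steady course. The share of fshb had its highest median at 79 to 92 dpf (66.5%, n = 10) and a median of 56.8% at 96 to 111 dpf (n = 11). It was already 56.7 to 66.4% in the females of 58 to 59 dpf, and 13.7 to 75.0% in those of 64 to 74 dpf. Its course was thus not steady either. The share of lhb had a median of 25.1% at 131 to 179 dpf (n = 6), against 3.54% at 32 to 35 dpf (n = 4). The median shares of fshb, lhb and tshba were 43.6, 25.1 and 25.1% in females of 131 to 179 dpf, against 49.4, 35.5 and 15.1% in males of 134 dpf.

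Between the sexes the log2 ratio did not pass the test at any age. It was -0.19 ± 0.24 in the females of 131 to 179 dpf (n = 6) and -0.46 ± 0.095 in the males of 134 dpf (SD, n = 4), a difference of 0.28 (two-sided exact permutation test, p = 0.0571, adjusted p = 0.183). In the younger comparisons the differences were -0.31 for 37 to 39 over 38 dpf, -0.29 for 58 to 59 over 57 dpf and 0.47 for 64 to 74 over 70 dpf (exact permutation tests, adjusted p = 0.419, 0.305 and 0.198). Relative to fshb alone, the females of 58 to 59 dpf had 1.39 less cga on the log2 scale than the males of 57 dpf, without overlap (exact permutation p = 0.0286, adjusted p = 0.131). This direction was not kept. The difference relative to fshb was 0.99 for 64 to 74 over 70 dpf, with overlap (exact permutation p = 0.038, adjusted p = 0.152). It was 0.51 for 131 to 179 over 134 dpf and -0.21 for 37 to 39 over 38 dpf (exact permutation p = 0.181 and 0.886). Among the hormone genes as a whole cga took 9.03 to 14.4% of the hormone counts in the females of 131 to 179 dpf and 1.83 to 2.88% in the males of 134 dpf. The denominator of this share also holds the other hormone genes, such as pomca and prl.

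**Figure D5:**
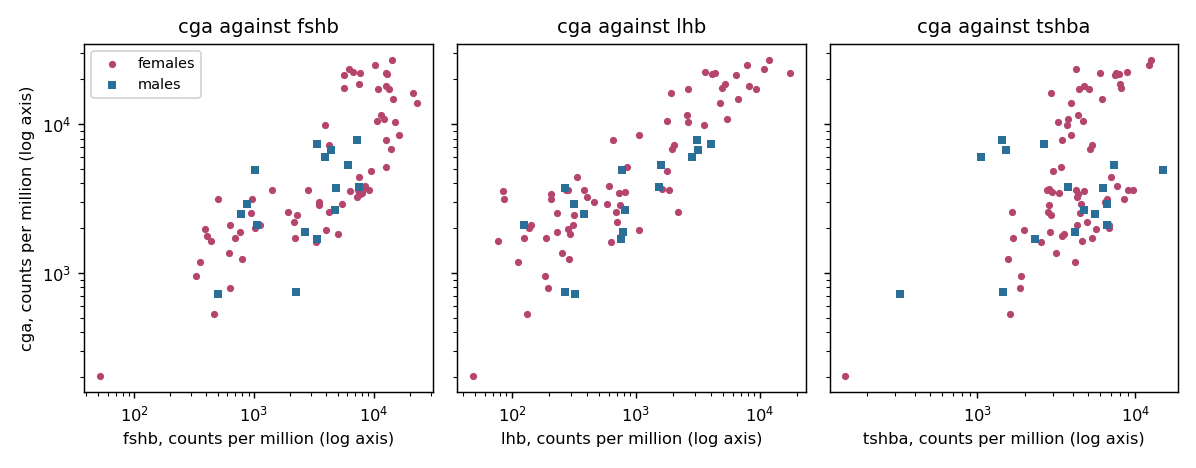
Level of cga against fshb, lhb and tshba in each library (CPM, log axes), with females as circles and males as squares. Across the 68 females r of the log2 values was 0.87 with lhb, 0.80 with fshb and 0.62 with tshba, and the lowest circle in each panel is medaka7.

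Across the 68 females cga was correlated with lhb (r = 0.87, rho = 0.85), fshb (r = 0.80, rho = 0.81) and tshba (r = 0.62, rho = 0.53), with p = 1e-05 in each permutation test of r and an adjusted p of 1e-05. The values come from the same libraries and so share their totals. Without the 2 fish with the most extreme level of the partner r was 0.86, 0.76 and 0.52. For deviations from age group means the order was different, with r = 0.75 for lhb, 0.85 for fshb and 0.76 for tshba, and without medaka7, an alternative added after seeing the data, it was 0.66, 0.78 and 0.61. The log2 ratio of cga to the summed beta genes was correlated with body length (r = 0.73, rho = 0.58) and log2 age (r = 0.78, rho = 0.69, permutation p = 1e-05 each). For deviations from age group means, however, r was 0.18 and 0.15 (permutation p = 0.249 and 0.22). Among the females of 32 to 111 dpf, an alternative added after seeing the data, the ratio had weaker correlations. They were r = 0.31 (rho = 0.27) with body length and r = 0.48 (rho = 0.46) with log2 age. The rank correlation of the ratio with length within age groups was weaker than that of the level but passed the test (rho = 0.31, permutation p = 0.0236, adjusted p = 0.033).

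Among 11535 genes with a median of at least 10 CPM, lhb had the seventh highest correlation with cga over the 68 females (the median gene had r = -0.02). fshb ranked at position 40, nr5a1b, a transcription factor gene of gonadotropes, at position 33 (r = 0.81), and tshba at position 265. CD74, the marker of antigen-presenting cells, was at position 659 (r = 0.48). Without medaka7 it was at position 132 (r = 0.70), above tshba at position 403 (r = 0.55). For deviations from age group means r of CD74 was -0.18, and 0.225 without medaka7. Its part in these relations was not tested. The 2 genes most like cga were ENSORLG00000002923 (r = 0.92) and ENSORLG00000026587 (r = 0.91), and the 2 least like it ENSORLG00000014996 (r = -0.76) and ENSORLG00000017111 (r = -0.74), for which the tables used here pair no symbol. Without medaka7 the 2 most like genes were the same, and the 2 least like were others. For deviations from age group means ENSORLG00000002923 was again the first (r = 0.90), fshb was at position 3, gh, the growth hormone gene, at position 18 (r = 0.77), nr5a1b at position 21 and tshba at position 22. Here lhb was below these genes, at position 28 (r = 0.75). Without medaka7, in which all hormone genes were low, these positions were 1 for ENSORLG00000002923, 4 for fshb, 35 for lhb, 43 for gh, 48 for nr5a1b and 49 for tshba. Over all females pou1f1, a transcription factor gene of thyrotropes and other hormone cells, had r = 0.26, and gnrhr2, a receptor gene for gonadotropin-releasing hormone, r = 0.14. Without medaka7 these values were 0.05 and -0.06. For deviations from age group means r was higher, at 0.53 for pou1f1 (position 335) and 0.44 for gnrhr2 (position 635). Without medaka7 these were 0.22 and 0.17.

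The genes tied to gonadotropes and thyrotropes were read in the same fit. Of the 6 genes fshb, lhb, tshba, nr5a1b, gnrhr2 and pou1f1, 1 was higher and 0 were lower with length in the joint fit, where 0.65% of all genes were higher and 4.72% lower, with a median log2 change of 0.62 per 5 mm against -0.004 over all genes. The gene that passed was nr5a1b (0.72 per 5 mm, SE 0.18, adjusted p = 0.00713 in edgeR). The beta subunit genes had values as large as 1.40 for fshb (SE 0.49, adjusted p = 0.0762) and 1.196 for lhb (SE 0.45, adjusted p = 0.112), and 0.51 for tshba (SE 0.23, adjusted p = 0.198, all in edgeR), while gnrhr2 and pou1f1 were at -0.003 and 0.003. With age at a given length 0 of the 6 passed the test in edgeR. In the males 2 of the 6 were higher at 134 than at 38 dpf (fshb and lhb), against 1.06% of all genes. In females of 131 to 179 dpf 1 of the 6 (tshba) was higher than in males of 134 dpf, against 0.0807% of all genes.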

How the data were processed

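Gene counts as whole numbers, not normalized, were deposited by the authors for 84 bulk RNA-seq libraries, each from the pituitary of a separate fish. Libraries were prepared with Smart-SEQ HT, and reads were aligned to the Hd-rR reference with gene models that the authors had adjusted. STAR 2.7.6a, SAMtools 1.10 and HTSeq 0.11.2 are listed in the submitters' notes. How multi-mapped reads and strand were handled is not stated there, so reads of antisense genes cannot be told apart. Without molecular identifiers, counting errors cover counting only. There were 0 columns without a sample and 0 identical libraries.

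CPM used all counts of a library. Tests across genes used edgeR 4.0.16 in R 4.3.3 with TMM factors, filterByExpr and a robust quasi-likelihood fit. Genes with a Benjamini-Hochberg adjusted p under 0.05 were called, and the SE was derived from the F statistic. Correlations used log2(CPM + 1) with 100000 permutations, and other group differences two-sided exact permutation tests (Python 3.11.15, scipy 1.17.1, numpy 2.4.6, pandas 2.3.3, matplotlib 3.10.9). Only the test between the females of 79 to 92 and of 96 to 111 dpf used 100000 random permutations instead. DESeq2 1.42.0, other scaling, filters, covariates and pseudocounts, and leaving out fish in turn were the alternatives. The edgeR fit and the permutation tests were tested on simulated data.

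The gene, the genes named beside it and the lists were chosen with earlier results of these data known. Named genes were cga, its partners, the gonadotrope and thyrotrope genes, and the 2 genes most and least like cga among those with a median of at least 10 CPM.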

Additional observations from a re-analysis of the deposited data

Results flagged for a closer look

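In 2 of 24 groups and measures (the level of cga and its log2 ratio to the beta subunit genes, in groups of 4 to 10 fish) a single fish stood apart from its own group. About 1 in 20 such groups would be picked out by chance. In medaka29, a female of 59 dpf and 14.5 mm, cga was at 1832 CPM, against 3391 to 3597 CPM in the other 3 females of 58 to 59 dpf. In medaka54, a female of 74 dpf and 19 mm, cga was at 10544 CPM, against 533 to 5122 CPM in the other 9 females of 64 to 74 dpf.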

How the results depend on the processing

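The call of cga with body length held under the alternatives run (values of 1.06 to 1.49 per 5 mm), except with the RNA integrity number added (1.06, adjusted p = 0.0582 in edgeR). Per doubling of age, cga passed only with age alone (1.23). The higher level in females of 131 to 179 dpf over males of 134 dpf did not pass with body length added (1.18) or in a single fit of all libraries (1.16). Some differences that did not pass the test changed sign. This was so for 53 over 44 to 49 dpf with totals without hormone genes (-0.0244), males of 57 over 38 dpf with body length (-0.0372), females of 37 to 39 over males of 38 dpf without a filter (-0.0264), and females of 58 to 59 over males of 57 dpf with body length (0.32). For females of 64 to 74 over males of 70 dpf it was so with totals without hormone genes (0.35), a filter at 5 CPM (0.0431), body length (0.52) and the single fit (0.0509). Totals without hormone genes moved the median of all genes by up to 0.50. With the geometric mean of the beta subunit genes in place of their sum, the log2 ratio for males of 134 over 38 dpf was 0.21 instead of 0.97. The ratios of the oldest and the young females then overlapped.

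With each fish left out in turn, log2 fold changes ranged over 1.07 to 1.31 for females of 131 to 179 over males of 134 dpf and over 0.86 to 1.93 for males of 134 over 38 dpf. For the female minus male change the range was 0.41 to 1.47. Ranges that included a change of sign were -0.13 to 0.22 for females of 53 over 44 to 49 dpf, -0.17 to 0.24 for 249 to 277 over 131 to 179 dpf, -0.0212 to 0.39 for 375 over 249 to 277 dpf, -0.0247 to 1.05 for males of 57 over 38 dpf, -0.32 to 0.73 for females of 37 to 39 over males of 38 dpf, and -0.31 to 0.41 for females of 64 to 74 over males of 70 dpf. For males of 57 over 38 dpf the log2 ratio of cga ranged over -0.34 to 0.0653 to the summed beta genes, -0.64 to 0.33 to lhb and -0.34 to 0.59 to tshba. For females of 37 to 39 over males of 38 dpf it ranged over -0.61 to 0.43 to fshb and -0.80 to 0.14 to tshba. Counts of genes called moved by more than 1.5 times with the setting, over 384 to 6984 with body length (main value 1157), 13 to 6441 with age (388), 2 to 1202 for females of 37 to 39 over 32 to 35 dpf (40), 0 to 5418 for males of 134 over 38 dpf (456) and 10 to 332 for adult females over males (103).

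For deviations from age group means, without and with medaka7 in that order, r was 0.00781 and 0.0855 for cga with log2 age, 0.32 and 0.18 for the ratio with body length, and 0.21 and 0.15 for the ratio with age. The causes were not tested. No paired analysis was possible because each fish is a separate animal and the replicate numbers only name fish.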
